A study of Mus musculus with 9 samples.

Results

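The genes of DNA replication and S phase were followed here as 37 members, chosen by known function at a time when earlier results of these data were known: Orc1, Orc6, Cdc6, Cdt1, Mcm2, Mcm3, Mcm4, Mcm5, Mcm6, Mcm7, Cdc45, Gins1, Gins2, Gins3, Mcm10, Pola1, Pold1, Pole, Prim1, Pcna, Rfc2, Rfc3, Rfc4, Rfc5, Rpa2, Fen1, Lig1, Rrm1, Rrm2, Tyms, Tk1, E2f1, Ccne1, Ccne2, Slbp, Chaf1a and Chaf1b. Each was the row of the deposited count and TPM tables that carried its gene symbol. All 37 stood once among the 19454 listed genes, and all 37 were among the 14461 genes with enough counts to be tested.

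The libraries were made from haematopoietic stem cells (HSCs), the self-renewing cells from which blood lineages arise, sorted from the bone marrow of wild-type mice, with 1500 cells and 12 PCR cycles per library. In the 3 control libraries no brain intervention was named in the labels. The 3 inhibition libraries came from mice with chemogenetic inhibition of the mPFC and PAG brain regions, in which an engineered receptor, switched on by a drug, quiets the neurons that bear it. The 3 spermidine libraries came from mice with that inhibition and a supplement of spermidine, a polyamine, and the series' title speaks of stress of the mind, of ageing HSCs and of spermidine running low. The library names of both inhibition groups read AAV, a viral carrier, and no virus or drug is named for control, so effects of virus, drug and silencing cannot be told apart. The labels give no sort markers, sex, age, promoter of the receptor, batch or source animal, so p-values measure only the spread between these libraries, which may be technical.

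Total counts were 16096117 to 25360110 per library. The HSC label was checked against 14 marker genes, of which 9 were higher and 5 lower with inhibition than in control. Procr, the protein C receptor of HSCs, was at 0.0606, 0.161 and 0.155 CPM (the count scaled to a common library total, here by the trimmed mean of M-values, TMM) in control, at or under what 3 counts give (0.155 to 0.182 CPM), against 3.62 to 4.77 CPM with inhibition and 7.23 to 8.02 CPM with spermidine. Control was also low for Ly6a, the surface antigen Sca-1 (6.06 to 6.49 CPM, against 81.1 to 95.0 CPM in the other groups), and for Hlf (2.18 to 2.89 CPM, against 21.6 to 38.2 CPM), while Kit was at 35.4 to 47.1 CPM throughout. Slamf1, the antigen CD150 of HSCs, went the other way, with a mean of 104.4 CPM in control, 17.6 CPM with inhibition and 13.8 CPM with spermidine. Tek was also higher in control (6.06 CPM) than with inhibition (2.87 CPM) or spermidine (3.96 CPM). The 16 neutrophil granule markers took 0.5999 to 0.613% of counts in control, 6.03 to 6.16% with inhibition and 2.604 to 2.71% with spermidine, and none of the 16 was at 0 in any library. The 8 megakaryocyte markers took 0.292 to 0.297%, 0.0168 to 0.0180% and 0.0210 to 0.0225%, and the 146 immunoglobulin genes took 0.00258 to 0.00273%, 0.627 to 0.654% and 0.296 to 0.316%. These lists move with every comparison below, and their part in the members' differences was not tested. With the neutrophil, B and plasma cell, erythroid and immunoglobulin genes left out of the library sizes, the members' counts of calls were as with them. That step changes the scaling only. It cannot show how much of the members' own RNA came from other cells. In bulk RNA, fewer cells in S phase and less RNA per cell cannot be told apart.

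A cell copies its DNA once per cycle. In G1 the origin recognition complex, Cdc6 and Cdt1 load the ring of Mcm2 to Mcm7 onto origins, and at the start of S phase Cdc45 and the GINS proteins turn that ring into the active helicase. Primase and DNA polymerase alpha begin each strand, the clamp Pcna and its loader hold polymerases delta and epsilon on the template, and ribonucleotide reductase and thymidylate enzymes supply the building blocks. Most HSCs in adult marrow rest outside the cycle, and transcription factors of the E2F family are known for switching many of these genes on together.

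Because many of the members are known E2F targets, their promoters (250 bases before to 50 after the start, RefSeq, build GRCm38.p6) were searched on both strands for the 8-base E2F-type words TTTCCCGC, TTTCGCGC, TTTGCCGC and TTTGGCGC. Of the 37 members 31 had a promoter in that table, some with more than 1. A word stood in 12 of 35 member promoters (34.3%), of 12 genes, and in 2.27% of all 32851 promoters. CCAAT, a box common in promoters of cycling genes, stood in 20 of 35 member promoters (57.1%) and in 37.4% of all. Of the 12 genes, 5 were higher with inhibition and 5 lower, and 1 stretch of each is printed to place the words beside both directions of change. They are 30 bases long, 5′ to 3′ on the strand of the gene, with 1 word in capitals. The Rfc3 stretch holds another match, gcgggaaa, left in lower case. These belong to the members that were higher with inhibition than in control:
Cdc6, plus strand, chr11:98908002-98908031: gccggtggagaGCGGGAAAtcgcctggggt
Gins3, plus strand, chr8:95633507-95633536: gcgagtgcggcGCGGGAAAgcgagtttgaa
Mcm3, minus strand, chr1:20820275-20820304: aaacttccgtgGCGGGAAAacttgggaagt
Mcm6, minus strand, chr1:128359734-128359763: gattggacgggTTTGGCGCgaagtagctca
Rfc3, minus strand, chr5:151651200-151651229: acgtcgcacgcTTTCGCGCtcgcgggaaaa

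The next belong to the members that were lower with inhibition than in control:
Orc1, plus strand, chr4:108579416-108579445: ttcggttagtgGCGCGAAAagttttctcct
Cdt1, plus strand, chr8:122568035-122568064: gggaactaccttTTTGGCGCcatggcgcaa
Pola1, minus strand, chrX:93632275-93632304: gtcatcacaggGCGCCAAAtgcactcccgc
Pold1, minus strand, chr7:44548766-44548795: cacggcggcgtatcttgtgGCGGGAAAagc
Lig1, plus strand, chr7:13278841-13278870: cgccaaagtgcGCGCGAAAtctgtgtggcg

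The other 2 members with such a word, Mcm5 and Mcm7, passed the test in neither direction between inhibition and control. A word is a match of letters and not a shown binding site, and 2 words can overlap, as at Mcm5 and Mcm6.

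The comparison of inhibition with control asks how the replication genes differed when those brain regions were silenced. Members moved both ways. All 4 genes of deoxynucleotide supply, both E cyclins, Cdc6 and Cdc45 were higher, by up to 3.5-fold for Ccne2. The catalytic chains of polymerases alpha and delta, Chaf1b, Mcm10 and the members Orc1 and Orc6 of the origin complex were lower, down to 0.274-fold for Pold1. By edgeR's quasi-likelihood test at an adjusted p under 0.05, 17 members were higher, 13 were lower and 7 passed in neither direction, under TMM and under total-count scaling alike. Of all tested genes 36.2% were higher and 36.1% lower under TMM (36.3% and 36% under total count), so the members' shares stand near the background. Control and inhibition libraries held separate ranges for 29 members and for 74.5% of all genes. The members' median log2 fold change was 0.06, against 0.02 over all genes. Together the members took 0.321 to 0.323% of all counts in control and 0.367 to 0.374% with inhibition.

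**Figure D1:**
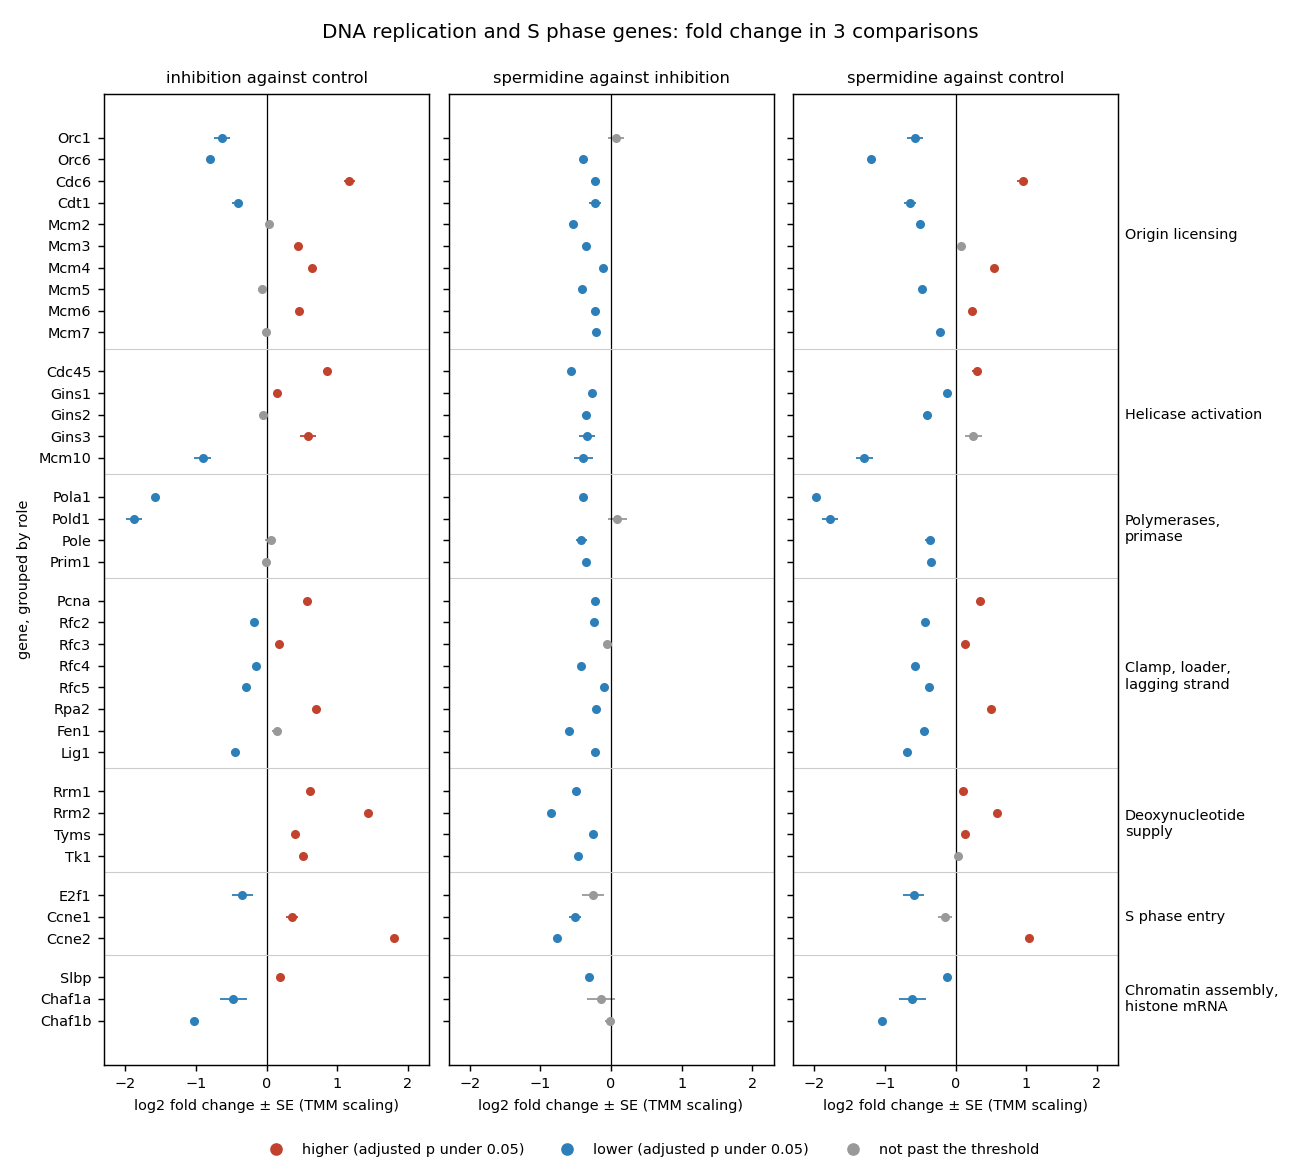
Log2 fold change (horizontal axis, TMM scaling, bars are SE) of each of the 37 members, grouped by role, in the 3 comparisons of 3 libraries each. Red points are higher and blue points lower at an adjusted p under 0.05, and grey points are not past it. The first panel holds 17 red and 13 blue points, the middle panel 31 blue and no red points, and the last 11 red and 22 blue points.

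Origin licensing split. Cdc6, which loads the MCM ring, was at 10.4, 10.5 and 10.5 CPM in control and at 23.7, 24.7 and 21.8 CPM with inhibition. Every inhibition library was above every control library, and the log2 fold change was 1.17 (SE 0.0769, edgeR adjusted p = 4.66e-10, n = 3 per group). Cdt1, which loads the ring with Cdc6, went the other way, with means of 15.3 and 11.5 CPM (-0.41, SE 0.0842). The count of Cdc6 over that of Cdt1, a ratio that needs no scaling between libraries, was 0.683 ± 0.0468 (SD, n = 3) in control and 2.05 ± 0.304 with inhibition. The lowest inhibition library, at 1.70, was above the highest control library, at 0.728. Orc6, the smallest subunit of the origin recognition complex, was at 180.6, 179.5 and 164.7 CPM in control. With inhibition it was at 99.1, 98.7 and 104.5 CPM, with no overlap (log2 fold change -0.80, SE 0.0406). Per length, in TPM (scaled for transcript length and library depth), Orc6 led the licensing members in control (112.1 TPM, against 37.7 TPM for Mcm6). By group means Mcm6 was above it with inhibition (56.2 against 53.9 TPM) and with spermidine (59.1 against 51.2 TPM). In inhibition replicate 3, however, Orc6 was above Mcm6 (55.4 against 54.7 TPM). Orc1, the ATPase subunit of the complex, was lower by a log2 fold change of -0.63 (SE 0.116), at 7.91 against 5.15 CPM on 87 to 150 counts per library. The other listed subunits of the complex, which are not members, did not all move that way. For Orc2 the means were 16.2 CPM in control and 19.9 CPM with inhibition, and for Orc3 51.7 and 103.5 CPM. For Orc4 they were 163.4 and 140 CPM, and for Orc5 31.2 and 33.0 CPM.

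Of the 6 ring subunits, which act as a complex of equal parts, Mcm3, Mcm4 and Mcm6 rose and the other 3 passed in neither direction. Mcm4 was at 57.3, 59.9 and 60.3 CPM in control and at 95.5, 92.4 and 91.7 CPM with inhibition (log2 fold change 0.65, SE 0.0392). Mcm3 and Mcm6 rose by log2 fold changes of 0.44 (SE 0.0484) and 0.46 (SE 0.0315). Mcm2 (log2 fold change 0.04, SE 0.0502), Mcm5 (-0.06, SE 0.0558) and Mcm7 (-0.01, SE 0.0517) had overlapping libraries. The Mcm4 to Mcm2 count ratio was 2.06 ± 0.103 (SD) in control and 3.14 ± 0.0673 with inhibition, again with no overlap. Levels between the subunits can be compared per length only. In control the mean was 37.7 TPM for Mcm6, 32.7 TPM for Mcm3, 28.5 TPM for Mcm7, 11.3 TPM for Mcm4, 7.98 TPM for Mcm5 and 6.31 TPM for Mcm2. Mcm3 and Mcm7 are neighbours in that order with little between them, as the Mcm3 libraries lay at 30.7 to 35.6 TPM and the Mcm7 libraries at 27.5 to 29.97 TPM.

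**Figure D2:**
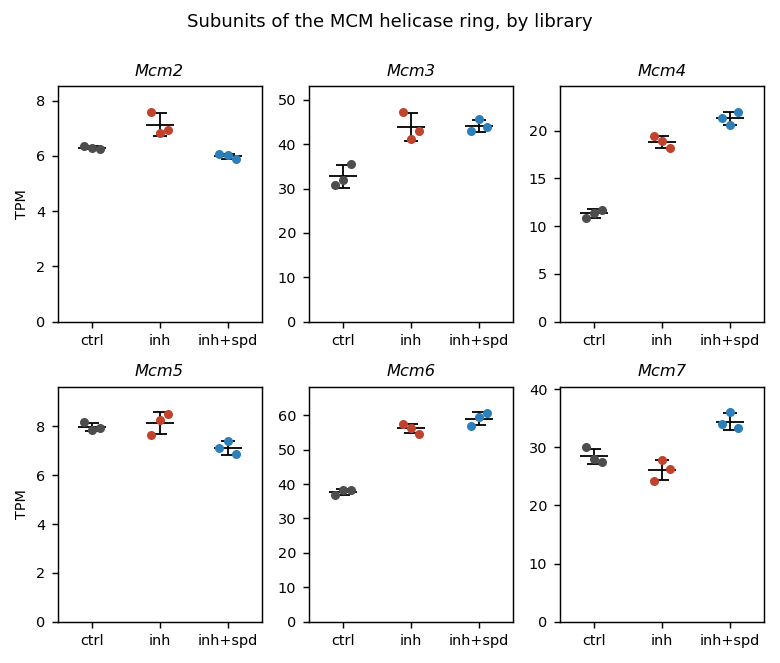
TPM (vertical axis, from 0) of the 6 subunits of the MCM ring in each library (points) of control (ctrl), inhibition (inh) and inhibition with spermidine (inh+spd), with group mean and SD (bars). Mcm4 and Mcm6 sit higher in both inhibition groups than in control, while Mcm2 and Mcm5 stay under 9 TPM in every library.

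Among the genes that switch the ring on, Cdc45 was at 14.9, 15.3 and 15.2 CPM in control and at 28.4, 27.9 and 26.1 CPM with inhibition (log2 fold change 0.86, SE 0.0588, edgeR adjusted p = 7.37e-10). The GINS genes, whose proteins form a complex with it, changed less: Gins3 rose (log2 fold change 0.59, SE 0.117) from a low level of 5.78 CPM, Gins1, the most abundant of this class per length at a mean of 54.7 TPM, rose slightly (0.15, SE 0.038), and Gins2 did not pass (-0.05, SE 0.0445). Mcm10, which holds primase and polymerase alpha at the fork, was at 9.46, 11.2 and 9.38 CPM in control and at 4.54, 5.94 and 5.40 CPM with inhibition (log2 fold change -0.90, SE 0.121). It rests on 60 to 209 counts per library. Its implied transcript length, the ratio of count to TPM, was also lower with inhibition, by 0.68 on the log2 scale, so that its TPM differed less than its CPM.

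The polymerases gave the largest falls. Pola1 (ENSMUSG00000006678, protein-coding, chromosome X, 93304767 to 93632155, minus strand, GENCODE M21 on mm10), the catalytic chain of polymerase alpha, was at 162.8, 156.7 and 147.5 CPM in control. With inhibition it was at 51.6, 51.8 and 53.0 CPM, a log2 fold change of -1.58 (SE 0.0409, edgeR adjusted p = 1.44e-15). The groups lay far apart next to their SDs of 7.69 and 0.76 CPM. In TPM the difference was wider, from 133.9 to 137.8 TPM in control to 25.7 to 29.3 TPM with inhibition, and the implied length rose by 0.78 on the log2 scale. For all genes, 9.58% had an implied length that differed by over 0.5 in this comparison. Per length Pola1 was above Prim1 in control (136 against 64.1 TPM) and below it in every inhibition library. Prim1, the primase subunit that works in the same complex as Pola1, did not pass (147.8 and 147.3 CPM, log2 fold change -0.01, SE 0.0352). The Pola1 to Prim1 count ratio was therefore 1.06 ± 0.0833 (SD) in control and 0.355 ± 0.0133 with inhibition.

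Pold1 (ENSMUSG00000038644, protein-coding, chromosome 7, 44532746 to 44548849, minus strand), the catalytic chain of polymerase delta, was at 21.9, 18.3 and 18.4 CPM in control and at 4.97, 5.11 and 5.90 CPM with inhibition. Its log2 fold change of -1.87 (SE 0.115, edgeR adjusted p = 1.77e-10) was the largest among the members in this comparison. Pold1 rests on 81 to 362 counts per library. Pole, the catalytic chain of polymerase epsilon, did not pass (log2 fold change 0.06, SE 0.0748), and its libraries overlapped. Pcna, the clamp on which Pold1 works, moved opposite to Pold1. It was at 437.9, 457.5 and 446.3 CPM in control and at 658.2, 663.1 and 672.4 CPM with inhibition, with no overlap (log2 fold change 0.57, SE 0.0272). The Pold1 to Pcna count ratio was 0.0438 ± 0.0055 (SD) in control and 0.00801 ± 0.000662 with inhibition.

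Within the clamp loader, whose subunits again act together, Rfc3 rose (log2 fold change 0.18, SE 0.0336) while Rfc2 (-0.18, SE 0.0276), Rfc4 (-0.15, SE 0.032) and Rfc5 (-0.29, SE 0.0369) fell. Rfc2, at a mean of 248.7 TPM, was among the most abundant members per length, and its libraries were at 340.6, 339.1 and 333.4 CPM in control and 290.5, 300.1 and 301.3 CPM with inhibition. Rpa2, a subunit of the protein that covers single-stranded DNA, rose from 61.7, 59.0 and 57.6 CPM to 95.5, 96.7 and 97.5 CPM (log2 fold change 0.70, SE 0.0362). The other listed subunits of that protein are not members and did not rise with it. From control to inhibition the means went from 16.44 to 16.35 CPM for Rpa1 and from 205.9 to 165.4 CPM for Rpa3. Of the genes that finish the lagging strand, Lig1, the ligase, fell (log2 fold change -0.44, SE 0.0565). Fen1, the flap nuclease, had non-overlapping libraries at 19.5 to 21.01 and 22.2 to 22.5 CPM but missed the threshold (log2 fold change 0.15, SE 0.0668, edgeR adjusted p = 0.0576). Without spermidine replicate 1 or 3 in the fit, the Fen1 adjusted p was 0.0481 or 0.0306.

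Deoxynucleotide supply was the only one of the 7 role classes in which every member rose. The class holds chosen genes only, and Rrm2b, which is outside it, went the other way as given below. Rrm2 (ENSMUSG00000020649, protein-coding, chromosome 12, 24708241 to 24714146, plus strand), the small subunit of ribonucleotide reductase whose level limits the enzyme in S phase, was at 74.7, 79.2 and 77.2 CPM in control. With inhibition it was at 208.9, 214.1 and 204.9 CPM, a log2 fold change of 1.44 (SE 0.0411, edgeR adjusted p = 5.1e-15). Rrm1, the large subunit, rose less, with means of 139.6 and 213.1 CPM (0.61, SE 0.0308). The Rrm2 to Rrm1 count ratio went from 0.552 ± 0.025 (SD) to 0.983 ± 0.0298. Tyms, thymidylate synthase, had a mean of 291.4 TPM over the 9 libraries, close to the 291.1 TPM of Pcna. It rose from 220.5, 220.2 and 214 CPM to 283.7, 294.1 and 289.7 CPM (log2 fold change 0.41, SE 0.0333). Tk1, thymidine kinase, also rose, by a log2 fold change of 0.51 (SE 0.0351).

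Of the S phase entry genes, Ccne2 (ENSMUSG00000028212, protein-coding, chromosome 4, 11191351 to 11204779, plus strand), cyclin E2, changed most. It was at 28.9, 29.7 and 28.97 CPM in control and at 108, 99.2 and 100.3 CPM with inhibition (log2 fold change 1.81, SE 0.0524, edgeR adjusted p = 6.2e-15). Ccne2 overlaps Ints8 on the opposite strand over 5622 bases, and counts of the 2 genes cannot be told apart there if no strand was used. Ints8 itself went down, from a mean count of 928.6 to 360.4, and the implied length of Ccne2 rose by 0.53 on the log2 scale. Ccne1, cyclin E1, rose less (means of 11.9 and 15.4 CPM, 0.36, SE 0.0909). E2f1, a transcription factor of this step, was at 5.94, 5.04 and 4.49 CPM in control and at 4.85, 3.36 and 4.10 CPM with inhibition. The E2f1 groups overlapped, and its call as lower (log2 fold change -0.34, SE 0.15, edgeR adjusted p = 0.0489) was lost in turn without control replicate 1 or 2, inhibition replicate 2 or 3, or spermidine replicate 1 or 2 (edgeR adjusted p of 0.056 to 0.23).

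The last class packs new DNA. Slbp, which binds the stem-loop of histone mRNAs, was at 428.2, 410 and 414.4 CPM in control and at 494.3, 462.8 and 467.4 CPM with inhibition (log2 fold change 0.19, SE 0.0308). The subunits of chromatin assembly factor 1 went the other way. Chaf1b (ENSMUSG00000022945, protein-coding, chromosome 16, 93883901 to 93906115, plus strand) was at 63.3, 56.2 and 62.4 CPM in control and at 28.5, 31.8 and 28.8 CPM with inhibition (log2 fold change -1.02, SE 0.0615, edgeR adjusted p = 1.3e-10). Its implied length was lower too (-0.45 on the log2 scale), so its TPM differed less. The Chaf1b mean was 17.5 TPM in control, 12.1 TPM with inhibition and 15.1 TPM with spermidine. Chaf1a, with 44 to 101 counts per library, overlapped between the groups, and its call as lower (log2 fold change -0.47, SE 0.192, adjusted p = 0.0383) was lost in turn without control replicate 1 or 3 or inhibition replicate 1 or 2 (edgeR adjusted p of 0.0866 to 0.179).

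Among the 48 other replication genes listed beside the members, 16 were higher and 25 lower with inhibition, with a median log2 fold change of -0.13, against the 36.2% and 36.1% of all genes given above. Topbp1, which helps to load Cdc45, was at 112.1 CPM in control and 39.4 CPM with inhibition (-1.51, SE 0.0402). Rrm2b, the p53-induced alternative to Rrm2, was at 230.1 and 57.7 CPM (-1.99, SE 0.0671), opposite to Rrm2. Wdhd1, which ties polymerase alpha to the helicase, fell too (-1.13, SE 0.0435), and Rbbp7, a histone chaperone subunit, rose (0.76, SE 0.0265).

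**Figure D3:**
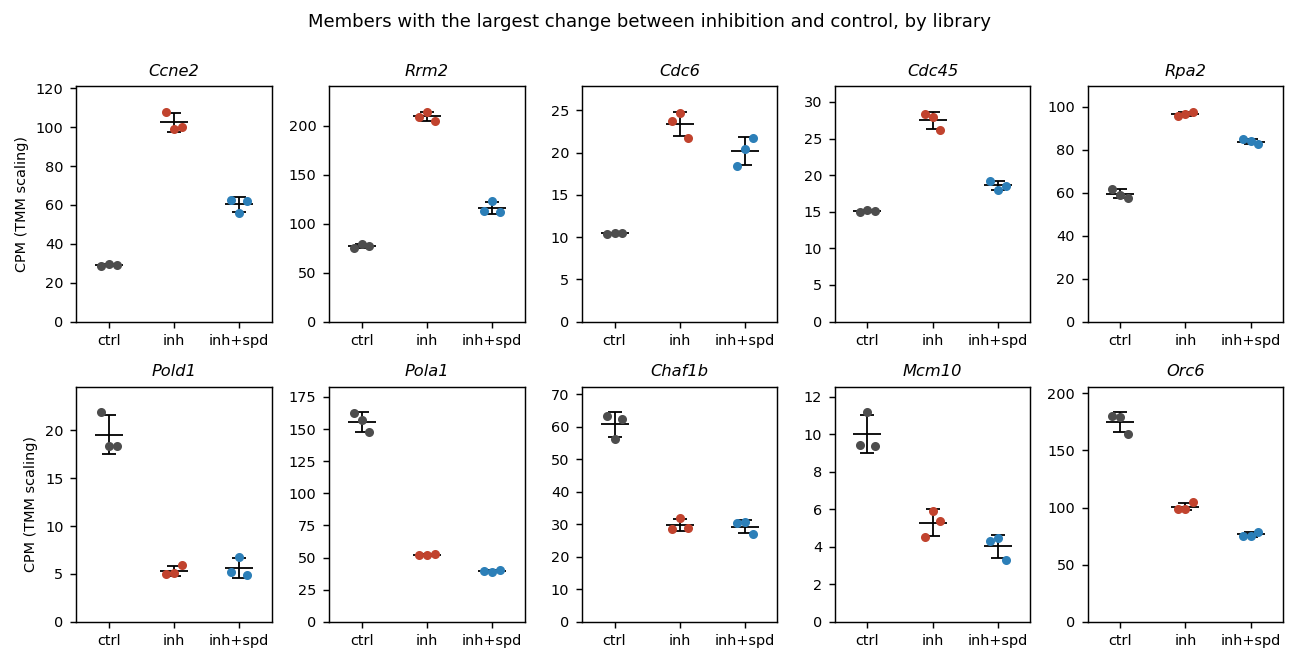
CPM (vertical axes, from 0, TMM scaling) in each library (points) with group mean and SD (bars) for the 5 members that rose most and the 5 that fell most with inhibition (inh) against control (ctrl), beside inhibition with spermidine (inh+spd). Ccne2 and Rrm2 lie between the other groups with spermidine. Pola1, Pold1, Chaf1b, Mcm10 and Orc6 remain far below control in CPM, while in TPM Chaf1b and Mcm10 differ less from control.

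Limits touch several of these values. Chaf1a overlaps Ubxn6 on the opposite strand over 5245 bases, Gins2 overlaps Gse1 over 2758, Rfc2 overlaps Lat2 over 1784 and Lig1 overlaps Zswim9 over 1439, and processed pseudogenes of Pcna and Tyms are annotated, so reads there could be assigned to either gene. Some shorter overlaps on the opposite strand were with genes of higher counts. Fen1 (237 to 540 counts per library) overlaps Tmem258 over 156 bases, with a mean count of 9446.7 in control. Cdc45 (246 to 673) overlaps Ufd1 over 209 (1176.3), and Rfc4 (2641 to 4920) overlaps Eif4a2 over 194 (5310). Limma on log2(TPM + 1) gave 21 members higher and 6 lower, and Orc1, Mcm10, Rfc2, Rfc4, Rfc5 and E2f1 no longer passed as lower. By the same test Gins2 (0.26), Pole (0.38), Mcm2 (0.15) and Fen1 (0.23) passed as higher, with limma adjusted p-values of 0.00246 to 0.0321. Shares of all genes were not taken with limma, so its counts of members have no background beside them.

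The comparison of spermidine with inhibition asks what the supplement changed in mice with the same brain inhibition. Under TMM scaling the members were lower with spermidine: 31 were lower, 0 higher and 6 passed in neither direction, against 28.9% of all genes lower and 29.1% higher. This rests on the scaling. Under total-count scaling 12 members were lower, 6 higher and 19 passed in neither direction, against 12.5% of all genes lower and 53.3% higher. Moving from TMM to total count raised the median of all genes by 0.26 on the log2 scale, from 0.03 to 0.29, and the members' median rose from -0.31 to -0.05, so the members' median stood below that of all genes under each. Libraries did not overlap for 31 members and for 62.8% of all genes under TMM.

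The 12 members lower under both scalings were Orc6, Mcm2, Mcm5, Cdc45, Pola1, Rfc4, Fen1, Rrm1, Rrm2, Tk1, Ccne1 and Ccne2. With limma on log2(TPM + 1), Orc6 (-0.07, adjusted p = 0.193), Rfc4 (-0.09, adjusted p = 0.0687) and Ccne1 (-0.14, adjusted p = 0.223) did not pass. Rrm2 fell most. From 204.9 to 214.1 CPM with inhibition it went to 112.4, 123.3 and 111.7 CPM with spermidine, with no overlap (log2 fold change -0.85, SE 0.0392, edgeR adjusted p = 2.17e-11 under TMM, and -0.59, SE 0.0434 under total count). Its partner Rrm1 was at 214, 210.9 and 214.2 CPM with inhibition and at 151.8, 148.7 and 150.3 CPM with spermidine (-0.50, SE 0.0303, and -0.24 under total count). The Rrm2 to Rrm1 count ratio, free of scaling, was 0.957 to 1.02 with inhibition and 0.741 to 0.829 with spermidine, with no overlap. Both lay above the 0.536 to 0.581 of control.

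Ccne2 was at 62.8, 55.7 and 62.3 CPM with spermidine, below each inhibition library (log2 fold change -0.77, SE 0.0469, and -0.51 under total count). Ccne1 fell by a log2 fold change of -0.51 (SE 0.0893), or -0.25 under total count. The ratio of the E cyclins did not separate these groups, with Ccne2 over Ccne1 at 6.05 to 7.11 with inhibition and 4.78 to 6.63 with spermidine. Cdc45 fell to 19.3, 18.0 and 18.6 CPM (log2 fold change -0.56, SE 0.0552, and -0.30 under total count). Fen1 was at 15.9, 15.3 and 13.1 CPM with spermidine (-0.59, SE 0.0675, and -0.33 under total count). Tk1 was at 75.3, 75.6 and 75.9 CPM (-0.47, SE 0.0344, and -0.21 under total count), and Rfc4 fell to 152.3, 149.1 and 146.1 CPM (-0.43, SE 0.0323, and -0.17).

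In the helicase ring, Mcm2 and Mcm5 were lower under both scalings, with log2 fold changes of -0.54 (SE 0.051) and -0.41 (SE 0.0565) under TMM and -0.28 and -0.15 under total count. Mcm4 changed sign, lower under TMM (-0.11, SE 0.0372) and higher under total count (0.15, SE 0.0391). The Mcm4 to Mcm2 count ratio, which no scaling can move, was 3.10 to 3.22 with inhibition and 4.07 to 4.48 with spermidine. Mcm6 and Mcm7 were lower under TMM (-0.23, SE 0.0309, and -0.21, SE 0.0513) and passed in neither direction under total count (0.03 and 0.05). Mcm3 was lower under TMM (-0.36, SE 0.047) and not past the threshold under total count (-0.10).

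The polymerase genes that were low with inhibition were not higher with spermidine under TMM. Pola1 fell further, to 39.5, 38.4 and 40.7 CPM (log2 fold change -0.40, SE 0.0447, and -0.14, SE 0.0429 under total count). Its ratio to Prim1 was 0.339 to 0.363 with inhibition and 0.335 to 0.347 with spermidine, an overlap. Pold1, at 5.16, 6.77 and 4.92 CPM with spermidine, did not pass under TMM (0.09, SE 0.134) and was higher under total count (0.35, SE 0.132, edgeR adjusted p = 0.0276). Chaf1b, at 30.3, 30.7 and 26.8 CPM, did not pass under TMM (-0.02, SE 0.0649) and was higher under total count (0.24, SE 0.067). Orc1, Rfc3 and Rfc5 were also higher under total count (0.33, 0.22 and 0.16), where Rfc5 had been lower under TMM (-0.10). Rfc3 and Chaf1b passed as higher with limma on log2(TPM + 1) too (0.25 and 0.29). Rfc3 passed as lower under TMM with no filter on low counts (-0.09).

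Abundant members of the remaining classes were lower under TMM only. Pcna went to 559.5, 573 and 571.7 CPM (log2 fold change -0.23, SE 0.0269, and 0.03 under total count). With limma on log2(TPM + 1) Pcna passed as higher (0.09, limma adjusted p = 0.0168). Tyms went to 230.9, 242.6 and 250.8 CPM (-0.26, SE 0.0329, and 0.00 under total count), and Slbp to 383.6, 379.5 and 386 CPM (-0.31, SE 0.0307, and -0.05 under total count). Prim1 went to 113.7, 114.7 and 118.8 CPM (-0.35, SE 0.0353, and -0.09 under total count). In the spermidine libraries the members together took 0.352 to 0.361% of all counts, between control and inhibition. That share applies no TMM factor. Every spermidine library had a higher TMM factor than any other library, which lowers its CPM, so this order rests on total-count scaling.

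**Figure D4:**
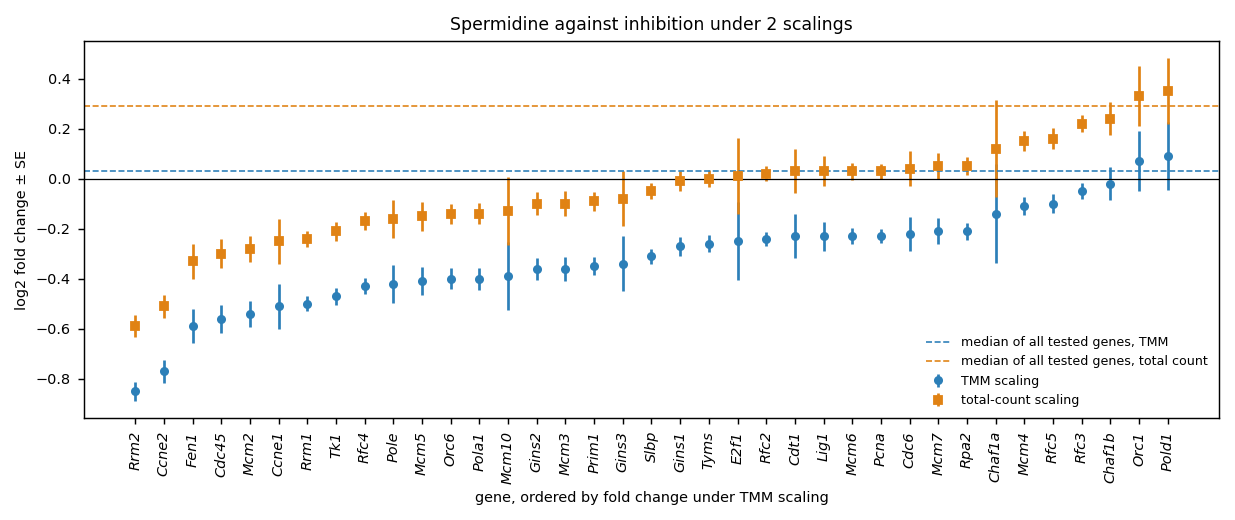
Log2 fold change of spermidine against inhibition (vertical axis, bars are SE) for each member under TMM scaling (blue circles) and total-count scaling (orange squares), with the median of all tested genes under each as a dashed line. Rrm2 and Ccne2 sit lowest under both, and all members but Orc1 and Pold1 lie below the dashed line of their colour.

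Of the 48 other replication genes, 32 were lower and 1 higher with spermidine under TMM, and 18 lower and 11 higher under total count, beside the shares of all genes given for this comparison. Asf1b, a histone chaperone, was at 46.6 CPM with inhibition and 26.8 CPM with spermidine (-0.80, SE 0.0484, and -0.54 under total count), and Tipin, which stabilises forks, at 300.4 and 192 CPM (-0.65, SE 0.0319, and -0.39). The share of counts of the neutrophil granule markers fell in the same libraries, and all 16 were lower under both scalings. Leaving out inhibition replicate 2 gave 27 lower members under TMM, as Cdc6, Gins3, Mcm10 and Rfc5 no longer passed. Calls were also lost without inhibition replicate 3 (Cdt1, Rfc5), spermidine replicate 1 (Cdc6, Cdt1, Rfc5), spermidine replicate 2 (Cdt1, Mcm4) and spermidine replicate 3 (Gins3, Mcm10, Rfc5), with edgeR adjusted p-values of 0.0514 to 0.172.

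The comparison of spermidine with control shares its control libraries with the first comparison and its spermidine libraries with the second, so its values are given on their own. Under TMM 11 members were higher, 22 lower and 4 passed in neither direction, against 41% of all genes higher and 37.1% lower. Under total count 16 were higher and 16 lower, against 53.2% and 25.5% of all genes. Libraries did not overlap for 33 members and for 79.8% of all genes.

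Under TMM, Ccne2 was the only member at least 2-fold higher (mean 60.3 against 29.2 CPM, log2 fold change 1.04, SE 0.054, and 1.30 under total count). Under total count Cdc6 was at least 2-fold higher too (1.21). Under TMM, Cdc6 (0.95, SE 0.0774), Rrm2 (0.59, SE 0.0418), Mcm4 (0.54, SE 0.039), Rpa2 (0.50, SE 0.0362) and Pcna (0.34, SE 0.0272) followed, all higher under total count too. The 5 members at least 2-fold lower under TMM were Pola1 (-1.98, SE 0.0417), Pold1 (-1.78, SE 0.111), Mcm10 (-1.29, SE 0.124), Orc6 (-1.20, SE 0.0412) and Chaf1b (-1.04, SE 0.0606). They were lower under total count as well, at -1.72, -1.52, -1.03, -0.93 and -0.78, but Mcm10 did not pass with limma on log2(TPM + 1) (-0.27, adjusted p = 0.0534). Tk1 (0.04, SE 0.0356), Mcm3 (0.08, SE 0.049) and Gins3 (0.25, SE 0.119) passed in neither direction under TMM and were higher under total count (0.30, 0.35 and 0.51), while Ccne1 passed under neither (-0.15, SE 0.0938, and 0.11). Gins3 was also higher under TMM without control replicate 2 (0.39) or spermidine replicate 3 (0.31), and Rrm1, higher at 0.11 (SE 0.031), no longer passed without control replicate 1 or 2 (0.08 and 0.07). Gins1 and Slbp were lower under TMM (-0.12 each) and higher under total count (0.15 and 0.14). Limma on log2(TPM + 1) called 18 members higher and 7 lower, with no share of all genes by limma to set beside them.

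Seen over the 3 groups at once, 17 members had all inhibition libraries above the other 6 under TMM, against 17.1% of all genes, and 7 did under total count, against 9.37%. The 7 were Cdc45, Fen1, Rrm1, Rrm2, Tk1, Ccne2 and Slbp. For 11 members all control libraries were above the other 6 under TMM, against 30.7% of all genes, a share near the background. They were Orc1, Orc6, Cdt1, Mcm10, Pola1, Pold1, Rfc2, Rfc4, Rfc5, Lig1 and Chaf1b, and all but Rfc5 also under total count, 10 members against 24.1% of all genes. All spermidine libraries were below the other 6 for 17 members under TMM, against 15% of all genes, and for 6 under total count, against 4.14%. Those 6 were Orc6, Mcm2, Pola1, Prim1, Rfc4 and Fen1.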

How the data were processed

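The authors deposited expected counts, that is estimated counts of reads for each gene, not scaled between libraries, per the file headers. A companion table from the authors gives TPM for the same 9 libraries. Whole numbers, to within 1e-06, made up 48.2% of the estimated counts, and the tool that made the fractional values is not given in the sources used here. The build mm10 and the tools edgeR 3.24.3, HTSeq 0.10.0, STAR 2.6.1d and Trim Galore 0.6.2 stand in the submitters' processing notes. The labels name no strand-specific step. Listed genes had a summed count of at least 5, and 19443 matched GENCODE M21 by identifier.

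Counts were rounded and tested in R 4.3.3 with edgeR 4.0.16 (quasi-likelihood test, TMM factors of 0.931 to 1.14, default filter on low counts), with 1 mean for each group and all 9 libraries fitted together. Benjamini-Hochberg adjustment ran over 14461 genes, with a threshold of 0.05. The fit was tested on simulated data. A count of 0 allows up to 3 counts, 0.117 to 0.184 CPM, for counting error only. The common dispersion in edgeR put the variation of replicate libraries, counting noise aside, at 4.07%. Same-numbered libraries did not deviate together (correlations of -0.0365 to 0.0526), so no block was used. The alternatives were total-count scaling, DESeq2 1.42.0, limma 3.58.1 on log2(TPM + 1) or log2(TPM + 0.1), other filters, other samples in the fit and library sizes without other-cell genes.

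The members and lists were chosen with earlier results of these data known. Any member could be named. Of the other replication and cell cycle lists, at most the 4 with the smallest p per comparison, Mki67, Top2a, Cdkn1c, Cdk2 and Ccna2 are named. Orc2, Orc3, Orc4, Orc5, Rpa1 and Rpa3 were named later, with their values seen, as subunits beside members.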

Additional observations from a re-analysis of the deposited data

How the results depend on the processing

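Leaving out 1 library at a time gave 17 to 18 members higher and 11 to 13 lower for inhibition against control, 0 higher and 27 to 31 lower for spermidine against inhibition, and 10 to 12 higher and 22 lower for spermidine against control. The fit with the replicate block gave 17 higher and 12 lower, 0 and 31, and 11 and 22, and DESeq2 gave 17 and 11, 0 and 30, and 10 and 22. Limma on log2(TPM + 1), on log2(TPM + 0.1) and without a filter each gave 6 lower for inhibition against control, 7 higher and 10 lower for spermidine against inhibition, and 18 higher and 7 lower for spermidine against control. These limma counts stand without a share of all genes. Total-count scaling gave 6 higher and 12 lower for spermidine against inhibition. Chaf1a could not be fitted with limma under the filter on TPM.

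For spermidine against inhibition, members lower under TMM had log2 fold changes above 0 under total count: Cdc6 0.04, Cdt1 0.03, Mcm4 0.15, Mcm6 0.03, Mcm7 0.05, Pcna 0.03, Rfc2 0.02, Rfc5 0.16, Rpa2 0.05 and Lig1 0.03. With limma they were Cdc6 0.05, Cdt1 0.06 (0.08 with the pseudocount 0.1), Mcm3 0.01, Mcm4 0.17 (0.18), Mcm6 0.07, Mcm7 0.39 (0.4), Gins3 0.01, Pcna 0.09, Rfc2 0.1, Rfc5 0.26 (0.27), Rpa2 0.12 and Tyms 0. Among these, Mcm4, Mcm7, Pcna, Rfc2 and Rpa2 passed as higher with limma, against their calls as lower under TMM. For spermidine against control, total count gave Mcm7 0.04, Gins1 0.15 and Slbp 0.14, and limma gave Mcm7 0.27, Gins1 0.22, Gins2 0.03, Pole 0.19 (0.21), Prim1 0.04, Rfc2 0.04, Rfc5 0 and Slbp 0.25. Gins1 and Slbp passed as higher by both, and Mcm7 with limma only. TPM is scaled within each library only, with no TMM factor. Depth limits Chaf1a, Mcm10, E2f1, Pold1, Orc1 and Gins3 most. Their lowest counts in a library were 44, 60, 70, 81, 87 and 87.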

Other observations

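Other cell cycle genes were read beside the replication genes. Of 21 genes of G2 and mitosis, 8 were higher and 11 lower with inhibition than in control, with a median log2 fold change of -0.07. Of all genes 36.2% were higher and 36.1% lower. Cdk1, the mitotic kinase, rose from 76.7 to 126.5 CPM (0.72, SE 0.0366) and Ccnb1, its cyclin, from 95.8 to 146.5 CPM (0.61, SE 0.0368), while Cenpf, a kinetochore protein, fell from 71.9 to 23.7 CPM (-1.59, SE 0.0639). Top2a, topoisomerase II of dividing cells, rose (0.55, SE 0.0359) and Mki67, the proliferation antigen, fell (-0.26, SE 0.0436). With spermidine against inhibition, 18 of the 21 were lower under TMM and 15 under total count, with 0 higher under each, against 28.9% and 12.5% of all genes lower. Mki67 fell from 72.7 to 45.8 CPM (-0.66, SE 0.0454, and -0.40 under total count), and Ccnb1 to 82.4 CPM (-0.83, SE 0.0367, and -0.57).

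Of 29 regulators of G1 and S phase entry, 14 were higher and 9 lower with inhibition than in control, beside the same shares of all genes. Cdk2, the kinase partner of cyclin E, rose from 30.8 to 47.4 CPM (0.63, SE 0.0615), as did Ccna2, cyclin A2 (0.27, SE 0.0584). With spermidine against inhibition 10 were higher and 10 lower under TMM, and 17 higher and 3 lower under total count. Of all genes, 29.1% were higher and 28.9% lower under TMM and 53.3% and 12.5% under total count, so these counts are near the background. Cdkn1c, the inhibitor p57, rose from 3.04 to 6.11 CPM (1.02, SE 0.15, and 1.28 under total count), from 1.44 CPM in control. Ccna2 fell to 29.2 CPM (-0.67, SE 0.0588, and -0.41).

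Pola2, the second subunit of polymerase alpha, was chosen after its values were seen. It was at 5760 CPM in control, 1163 CPM with inhibition and 882.3 CPM with spermidine, against 155.7, 52.2 and 39.5 CPM for Pola1. In TPM, its control libraries were at 1598 to 1800 TPM and those of Pola1 at 133.9 to 137.8 TPM, so the subunits of this complex were not listed at like levels. Whether reads of another transcript were assigned to Pola2 was not tested, and its values are uncertain.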
